A study of Mus musculus with 6 samples.

Results

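Glutamatergic neurons of the ventromedial nucleus of the mouse hypothalamus (VMH) with no detected *Esr1* were selected nucleus by nucleus on raw counts of unique molecular identifiers (UMIs, one for each captured RNA molecule). A nucleus was chosen if it held at least 1000 UMIs, at least 1 UMI of *Slc17a6*, at least 2 UMIs of *Fezf1* and *Nr5a1* together, no UMI of *Esr1*, and fewer than 2 UMIs of *Gad1*, *Gad2* and *Slc32a1* together. This rule took 390 of 39665 nuclei (0.983%). The 7 genes of the rule were used for the choice, so their levels are given as a description and no test result is given for them. *Slc17a6* encodes the vesicular glutamate transporter VGlut2, *Gad1*, *Gad2* and *Slc32a1* mark GABAergic neurons, and *Esr1* encodes estrogen receptor alpha.

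The VMH is a mostly glutamatergic nucleus that takes part in the control of energy expenditure, blood glucose and defensive behavior, and, in its ventrolateral part, of social and reproductive behavior. *Nr5a1* encodes SF-1, a nuclear receptor needed for the nucleus to form, and *Fezf1* encodes a zinc finger factor that acts in its development. Neurons rich in *Esr1* are known to lie in the ventrolateral part, and the dorsomedial and central parts are known for neurons with little or none of it.

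The nuclei came from whole hypothalami of wild-type male C57Bl/6 mice aged 6 to 8 weeks, of which 12 were fed ad libitum (fed libraries below) and 6 were fasted overnight for 16 h. No transgene, sort for a cell type or other agent was used, and single nuclei were sorted only by the DNA dye DRAQ5 before droplet-based (10x Genomics) library preparation. Each pool of 6 mice was sorted into 2 tubes with 1 library each, which gave 4 libraries from 2 fed pools and 2 libraries from 1 fasted pool. The labels do not say which fed libraries share a pool, and the spread between the fasted libraries is that between tubes of 1 pool. In the tests across genes that compared feeding states, the lone fasted pool was therefore given the variation seen among the fed pools.

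The members were spread very unevenly over the libraries. Fed libraries 1 to 4 gave 24, 26, 124 and 149 members, and fasted libraries 1 and 2 gave 34 and 33. Libraries 3 and 4 thus held 273 of the 390, while the counts of the other 4 libraries lay close together.

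Libraries 3 and 4 also stood apart in depth and in composition. The median member held 6657, 6231.5, 11481.5 and 11113 UMIs in the fed libraries and 9898 and 9756 UMIs in the fasted ones, and ribosomal protein genes took 0.327%, 0.325%, 1.64% and 1.77% of the members' UMIs against 0.208% and 0.196%. Across the 9774 genes with at least 50 UMIs, the log2 levels of the members correlated at 0.859 between libraries 1 and 2, 0.981 between libraries 3 and 4 and 0.926 between the fasted libraries, but at 0.781 to 0.794 between libraries 1 or 2 and 3 or 4 (Pearson's r across genes, which are not independent replicates, and which also reflects the number of nuclei in each sum). By the same measure libraries 1 and 2 were nearer to the fasted libraries (0.867 to 0.871) than to libraries 3 and 4. The main counts are therefore given with and without libraries 3 and 4. Whole libraries held 39556605, 31757655, 59083864 and 59940795 UMIs in the fed and 36177621 and 35567902 UMIs in the fasted group, and the members' sums held 162939, 161332, 1460419 and 1685141 UMIs and 338281 and 342615 UMIs, so a value in libraries 1 and 2 rests on the fewest molecules.

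**Figure D1:**
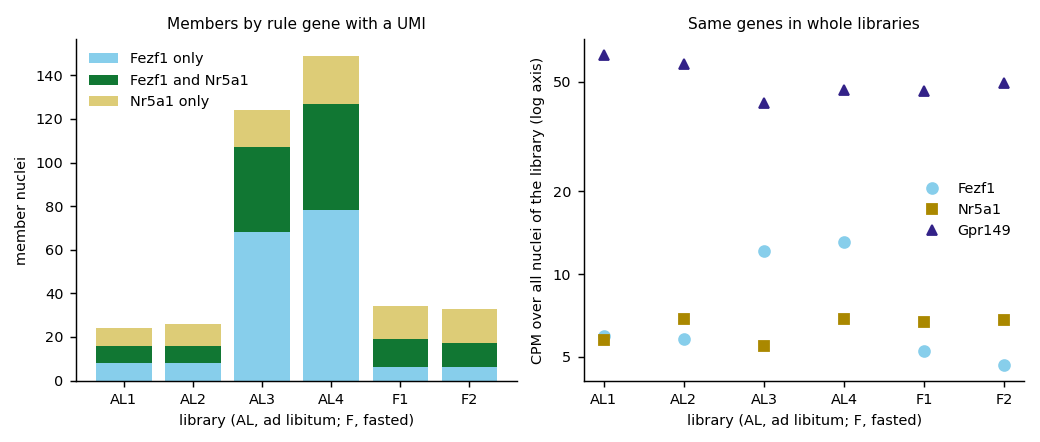
Left, member nuclei in each library (bars, split by the rule genes with a UMI: *Fezf1* only, both, or *Nr5a1* only). Right, UMIs of a gene per 1000000 UMIs of the sum (CPM, log axis) of *Fezf1*, *Nr5a1* and *Gpr149* over all nuclei of each library. AL, ad libitum fed; F, fasted. Libraries AL3 and AL4 hold 124 and 149 members, and their whole-library *Fezf1* is above that of the other 4 libraries while *Nr5a1* and *Gpr149* are not.

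*Fezf1* and *Nr5a1* decide membership, so their levels in whole libraries are given as a description. Over all nuclei of a library, *Fezf1* stood at 5.95, 5.83, 12.2 and 13.1 CPM in the fed libraries and at 5.26 and 4.67 CPM in the fasted ones. *Nr5a1* stood at 5.77, 6.84, 5.47 and 6.84 CPM and at 6.72 and 6.81 CPM in the same order. Of these genes, libraries 3 and 4 were high in *Fezf1* only. They were also high in *Slc17a6*, another gene of the rule, at 142 and 145 CPM against 88.8 and 88.2 CPM in libraries 1 and 2 and 55.6 and 53.6 CPM in the fasted libraries.

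Of the 390 members, 174 had a UMI of *Fezf1* alone, 88 of *Nr5a1* alone and 128 of both. In libraries 3 and 4 nuclei with *Fezf1* alone were the most common, at 68 and 78 against 17 and 22 with *Nr5a1* alone. In the fasted libraries the order was the opposite, at 6 and 6 against 15 and 16, and in libraries 1 and 2 both kinds were alike, at 8 and 8 against 8 and 10. The part of depth, library composition and feeding state in this makeup cannot be told apart.

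As a share of all nuclei, the members made up 0.284%, 0.391%, 1.95% and 2.34% in the fed libraries and 0.569% and 0.562% in those of fasted mice. The means were 1.24% ± 1.05 (SD, n = 4) and 0.566% ± 0.00512 (SD, n = 2). The fasted libraries lay inside the range of the fed ones. The difference of -0.675 percentage points ranged from -0.994 to -0.310 with 1 library left out, and was -0.310 without library 4. The share follows from the rule genes, so it is given as a description with no test. After each nucleus was thinned to 2000 UMIs, 0, 5, 3 and 6 members remained in the fed and 2 and 0 in the fasted libraries, so that library 2 was no longer below library 3. The shares were then 0.0559% ± 0.0422 (SD, n = 4) and 0.0181% ± 0.0256 (SD, n = 2).

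Most members passed the threshold narrowly. The summed *Fezf1* and *Nr5a1* count was exactly 2 in 283 members, 3 in 76 and 4 or more in 31, and 1098 further glutamatergic nuclei without *Esr1* had exactly 1 UMI and stayed outside. *Gpr149*, which encodes an orphan receptor and was given with the rule as a marker but not used by it, had 157 CPM in the members with exactly 2 UMIs, 149 CPM in those with 3 and 157 CPM in those with 4 or more, and 144 CPM in the nuclei just outside. The libraries differed in this gene and in their share of each kind of nucleus. Members with exactly 2 UMIs and the nuclei just outside had 255 and 225 CPM in libraries 1 and 2, 142 and 117 CPM in libraries 3 and 4, and 166 and 172 CPM in the fasted libraries. The nuclei just outside were thus lower in the fed libraries and not in the fasted ones. Of nuclei that met every other criterion, 47 were left out by their GABAergic UMIs, 24 and 20 of them in libraries 3 and 4. A further 139 met the criteria except for *Slc17a6*, 89 in the fed and 50 in the fasted libraries.

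The label was compared with markers that the rule did not use. A *Gpr149* UMI was found in 257 of 390 members, which is 65.9% (95% exact binomial interval 61.0 to 70.6%; intervals here cover counting error only), against 22.1% (21.2 to 22.9%) of the 9611 glutamatergic nuclei with neither *Fezf1* nor *Nr5a1*, called other glutamatergic neurons below. Free RNA from broken cells, which droplets take up, may add to both shares, and its part was not tested. Depth also differed, since the median other glutamatergic nucleus held 4932, 5142, 9077 and 9193 UMIs in the fed libraries and 7212 and 7310 UMIs in the fasted ones. Of 10 VMH markers tested, whose levels are given further on, 5 were higher in the members than in other glutamatergic neurons and 1 was lower, and without libraries 3 and 4 *Gpr149* was the only one called. Among the called markers *Gpr149*, *Sox14*, *Nkx2-2* and *Dlk1* also name neuron subtypes in the study's atlas. The study chose such names in part on the same libraries, so these calls are not independent evidence for the label.

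The *Esr1*-negative part of the label rested on 0 UMIs in nuclei of limited depth. Among all 457 VMH nuclei that met the rest of the rule, 67 had an *Esr1* UMI, which is 14.7% (11.5 to 18.2%), and 45 of these had only 1. The share was 15.0% (14.3 to 15.7%) in other glutamatergic neurons and 15.4% (15.0 to 15.7%) in all nuclei. With every nucleus thinned to 2000 UMIs it was 4.39% (2.70 to 6.69%) of 456 VMH nuclei, 5.86% (5.39 to 6.35%) of other glutamatergic neurons and 6.65% (6.40 to 6.91%) of all nuclei. *Esr1* was thus found no more often in these VMH nuclei than in the hypothalamus at large, and 0 UMIs at this depth did not show that a nucleus was without *Esr1* RNA. The name therefore stands for nuclei without a detected UMI. The *Esr1*-negative share of VMH nuclei was 88.0% ± 8.20 (SD, n = 4) in fed and 90.5% ± 1.91 (SD, n = 2) in fasted libraries. As *Esr1* is a gene of the rule, this is a description, and the difference of 2.52 percentage points ranged from 0.325 to 6.52 with 1 library left out. At 4 or more UMIs of *Fezf1* and *Nr5a1* together, where few nuclei remained, it turned to -42.1 points.

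*Fezf1* (chr6:23245044-23248362, minus strand), *Nr5a1* (chr2:38692656-38714542, minus strand), *Esr1* (chr10:4611593-5005614, plus strand) and *Gpr149* (chr3:62529077-62605140, minus strand) are protein-coding genes (coordinates of GENCODE vM21 on GRCm38, the mm10 build to which the reads were mapped). Counts are of whole genes, so neither exons nor transcripts were told apart. Among the summed UMIs of the members, *Fezf1* stood at 166, 180, 151 and 151 CPM in the fed libraries and at 82.8 and 75.9 CPM in the fasted ones. *Nr5a1* stood at 160, 180, 58.2 and 62.9 CPM and at 154 and 140 CPM. *Fezf1* was lowest in the fasted libraries and *Nr5a1* in fed libraries 3 and 4.

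Astrocyte and vascular markers were low in the members, and oligodendrocyte markers were present in every library. The astrocyte genes *Aqp4*, *Gja1*, *Slc1a3*, *Agt* and *Gfap* summed to 42 UMIs over all members, with none in library 1. The 4 vascular genes summed to 22 UMIs, of which *Pecam1* gave 20, and *Cldn5* and *Slco1a4* were at 0 UMIs in all members, as was the ependymal gene *Ccdc153*. The 6 oligodendrocyte genes, among them the myelin gene *Mbp*, summed to 98.2, 112, 178 and 94.9 CPM in the fed libraries and 124 and 283 CPM in the fasted ones, and 205 of 390 members had at least 2 UMIs of 25 glial and vascular genes as a sum. The 5 microglial genes summed to 179 UMIs, the 2 genes of oligodendrocyte precursors to 7 and the 3 of tanycytes and ependyma to 94, of which *Col23a1* gave 93. Of the 14 markers of neighboring neurons, the most abundant in members was *Avp* in libraries 1 and 2, *Oxt* in libraries 3 and 4 and *Agrp* in the fasted libraries. As a sum the members held 276, 229, 659 and 677 CPM in the fed libraries and 160 and 117 CPM in the fasted ones, while other glutamatergic neurons held 468, 541, 2715 and 3395 CPM and 269 and 267 CPM. In both sets of nuclei this sum was highest in libraries 3 and 4 and lowest in the fasted libraries, and the part of such RNA in the results below was not tested.

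The first comparison asked which genes set the members apart from other glutamatergic neurons of the same libraries. Of 19457 genes tested, 597 were higher (3.07% of those tested) and 703 lower (3.61%) in the members at an adjusted p below 0.05 in edgeR's quasi-likelihood test with the pool as a block, in which each gene kept its largest p over the 3 ways to assign the fed libraries to pools. In the members alone, 11127 genes passed the filter on low counts. The remaining genes entered through the other neurons and had few counts in the members. The share called over all genes, 6.68%, includes them, so it is an unlike background for lists of genes well counted in the members. The VMH marker *Gpr149*, the glutamate receptor gene *Grm5*, the cannabinoid receptor gene *Cnr1* and the potassium channel gene *Kcnb2* were among the higher genes, and *Oxt*, *Avp*, *Sim1* and *Foxp2*, known from other hypothalamic regions, among the lower ones. Of these, *Avp* was not called by DESeq2 or without libraries 3 and 4. Neither *Avp* nor *Oxt* was called with the UMIs of a gene limited in each nucleus. DESeq2 called 446 genes, 247 higher and 199 lower, and all 446 were also called by edgeR. Without libraries 3 and 4 the count was 648, of which 572 were among the 1300, and without libraries 1 and 2 it was 1442, of which 1182 were. After thinning to 2000 UMIs the count was 344, and at 4 or more UMIs of *Fezf1* and *Nr5a1* together it was 18.

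Of 10 VMH markers tested that the rule did not use, 5 were higher in the members, 1 was lower and 4 did not pass the test (60.0% called, against 6.68% over all genes). As said above, *Gpr149*, *Sox14*, *Nkx2-2* and *Dlk1* among them are not independent of these libraries. *Gpr149* stood at 288, 205, 138 and 144 CPM in the members of the fed libraries and at 157 and 196 CPM in those of the fasted ones, against 80.5, 77.4, 48.3 and 48.9 CPM and 56.4 and 60.1 CPM in other glutamatergic neurons. The sets did not overlap, and the log2 fold change (log2FC) was 1.498 (SE 0.09, edgeR adjusted p = 7.75e-31). *Sox14*, which encodes a SOX family transcription factor, ranged from 18.6 to 40.9 CPM in members and from 9.57 to 16.5 CPM in the other neurons (log2FC 1.32, SE 0.19). *Nkx2-2*, a homeobox gene of the ventral forebrain, ranged from 12.3 to 17.7 CPM against 5.19 to 6.63 CPM (log2FC 1.40, SE 0.27). Both were higher in the members of every library. Neither was called without libraries 3 and 4 or after thinning to 2000 UMIs. *Nkx2-2* was also not called without nuclei with glial UMIs, while *Sox14* was.

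*Nptx2*, which encodes a synaptic pentraxin that binds AMPA receptors, was higher in the members by a log2FC of 1.23 (SE 0.15), and *Cbln1*, which encodes a synapse organizer, by 0.72 (SE 0.13, edgeR adjusted p = 0.0132). The levels of *Cbln1* followed the library more than the set of nuclei, with 76.0 and 82.5 CPM in the members of libraries 3 and 4 and at most 24.5 CPM in those of the other 4. *Dlk1*, which encodes a Notch ligand homolog, was lower, with a log2FC of -0.58 (SE 0.13), and *Adcyap1*, which encodes the peptide PACAP (log2FC 0.26, SE 0.12), *Bdnf* (0.39, SE 0.12), *Vgll2* (-0.14, SE 0.37) and *Cd40* (-1.15, SE 1.09) did not pass the test. Without libraries 3 and 4 only 1 of the 10 markers was called, and after thinning to 2000 UMIs 2 were.

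**Figure D2:**
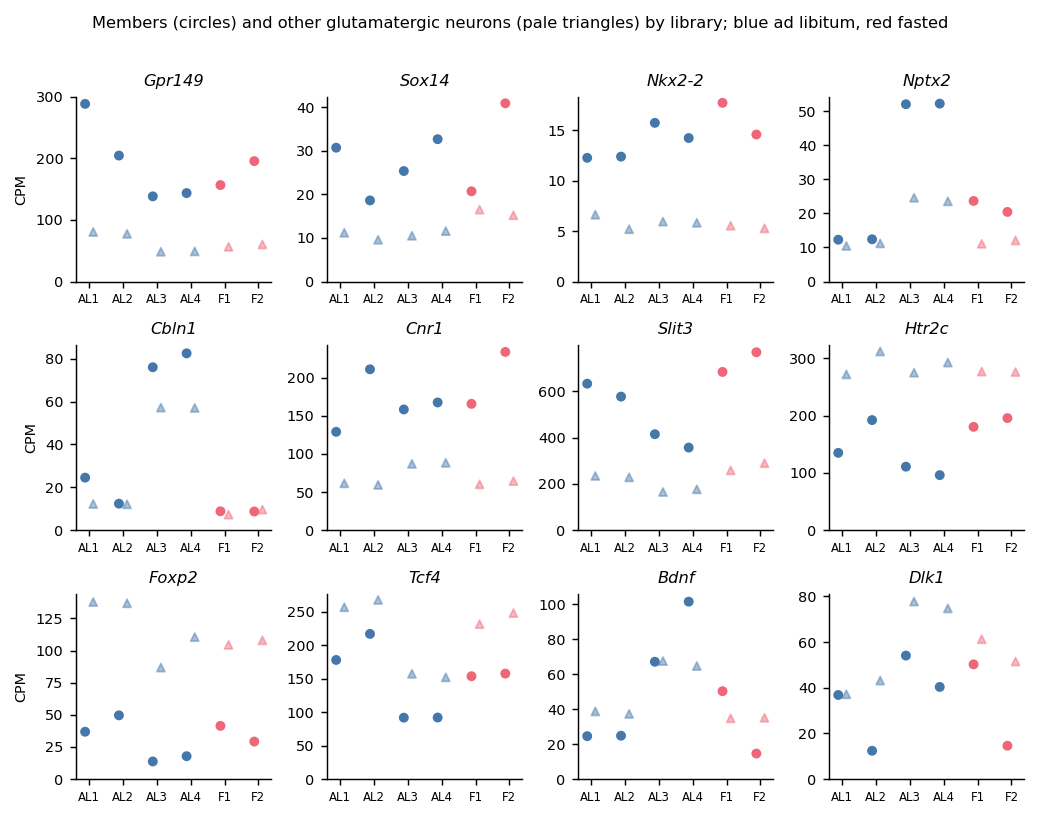
CPM of 12 genes in each library, in members (circles) and other glutamatergic neurons (pale triangles), with a linear axis from 0. Blue, ad libitum fed; red, fasted. *Gpr149* lies between 138 and 288 CPM in members and at or below 80.5 CPM in the other neurons, and *Foxp2* at or below 49.6 CPM in members and at or above 86.7 CPM in the others.

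The 12 highest and 12 lowest genes by size of the difference, among those with 1 direction in all 6 libraries, are described next. *Adamts9*, which encodes a matrix metalloprotease, stood at 49.1, 49.6, 56.1 and 48.7 CPM in members of the fed libraries and 50.3 and 37.9 CPM in those of the fasted ones, against 11.9 to 17.3 CPM in other glutamatergic neurons (log2FC 1.83, SE 0.15, edgeR adjusted p = 4.14e-22). No library of the members was within the range of the other neurons. *Lama1*, a laminin chain, had 91.8 ± 19.9 CPM (SD, n = 6 libraries) against 29.0 ± 5.32 CPM (log2FC 1.58), and *Hmcn2*, a basement membrane protein, 57.6 ± 24.1 CPM against 19.6 ± 3.69 CPM (log2FC 1.38).

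*Nrgn*, which encodes the calmodulin-binding protein neurogranin, was higher by a log2FC of 1.72 (SE 0.08). Its level in members was 49.1, 105, 573 and 565 CPM in the fed and 94.6 and 81.7 CPM in the fasted libraries, so it was higher than in the other neurons of every library but varied more between libraries than between the sets. *Qrfpr*, the receptor of the peptide 26RFa, had 49.2 ± 18.3 CPM against 16.0 ± 2.48 CPM (SD, n = 6, log2FC 1.71). *Megf11*, which encodes a membrane protein with EGF-like repeats, had 165 ± 66.6 CPM against 58.4 ± 18.4 CPM (log2FC 1.48), and the sodium, potassium and calcium exchanger gene *Slc24a4* had 48.5 ± 25.2 CPM against 16.3 ± 5.16 CPM (log2FC 1.45).

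*Steap3* (log2FC 1.71), a metalloreductase gene, *Ankrd33b* (1.75), the transcription factor gene *Maf* (1.35) and the olfactory receptor gene *Olfr889* (1.61) completed the 12 highest. *Olfr889* belongs to a large family of similar genes, so its counts are uncertain. All 24 genes named by the rule of size in either direction were also called by DESeq2, without libraries 3 and 4, without libraries 1 and 2, with the UMIs of a gene limited in each nucleus and without nuclei with glial UMIs, and 20 of the 24 after thinning to 2000 UMIs, where *Maf*, *Olfr889*, *Slc24a4* and *Steap3* were lost.

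Among the 12 lowest, *Ebf3*, which encodes a transcription factor of the EBF family, was nearly absent from the members. It gave 0, 0, 4.11 and 0 CPM in the fed and 2.96 and 0 CPM in the fasted libraries, 7 UMIs in all, against 20.9 to 32.9 CPM in other glutamatergic neurons (log2FC -3.84, SE 0.34). *Foxp2*, a forkhead factor gene, stood at 36.8, 49.6, 13.7 and 17.8 CPM and at 41.4 and 29.2 CPM, against 138, 137, 86.7 and 110 CPM and 104 and 108 CPM in the others (log2FC -2.29, SE 0.14, edgeR adjusted p = 5.85e-31). Members were lower than the other neurons in every library for both genes.

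*Nrp1*, a receptor for semaphorins and VEGF, had 15.2 ± 7.87 CPM in the members against 116 ± 21.0 CPM (SD, n = 6, log2FC -2.60). *Pard3b* (log2FC -2.93), a cell polarity gene, *Dgkk* (-3.76), a diacylglycerol kinase gene, *C1ql3* (-2.70), which encodes a synaptic C1q-like protein, *Col19a1* (-2.76), *Myo5b* (-2.57), *Fras1* (-2.49), *Cpne9* (-2.36), *Tanc1* (-2.24) and *Lhx1os* (-2.53) were lower as well. *Lhx1os* is an opposite-strand gene by its name, and the use of strand in the counting is not given in the sources used here.

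The neighboring-neuron genes were lower too. None of the 14 was higher in the members and 10 were lower (71.4% called, against 6.68% over all genes), namely *Oxt*, *Avp*, *Hcrt*, *Pmch*, *Pomc*, *Npy*, *Tac2*, *Kiss1*, *Sim1* and *Foxb1*, with a median log2FC of -1.69 against -0.04 over all genes tested. *Sim1*, a factor of the paraventricular nucleus, had 18.4, 0, 18.5 and 16.6 CPM in members of the fed libraries and 2.96 and 14.6 CPM in those of the fasted ones, against 38.8 to 65.0 CPM in the others (log2FC -1.66, SE 0.17). Neighboring neurons are themselves part of the comparison set, so this difference describes both sets. Without libraries 3 and 4 it was 5 genes that were lower and with limited UMIs per nucleus also 5. *Avp* was in neither of these counts, and *Oxt* was not in the second. In fasted library 1 *Avp* was not lower in the members, at 35.5 against 34.1 CPM in the other neurons.

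Among the transmitters and peptides, 3 of 23 tested were higher and 8 lower (47.8% called, against 6.68% over all genes). The higher ones were *Cbln1*, *Nptx2* and *Pcsk2*, the latter a prohormone convertase gene (log2FC 0.27, SE 0.06), and the lower ones included *Cck* (-2.51, SE 0.21), *Cbln2* (-2.17, SE 0.29), *Cartpt* (-1.58, SE 0.11) and *Gal* (-1.03, SE 0.15). *Cck* stood at 12.3, 0, 12.3 and 6.53 CPM in the members of the fed and 0 and 2.92 CPM in those of the fasted libraries, against 77.1 and 62.0 CPM in the other neurons of libraries 3 and 4 and 4.77 to 10.5 CPM in those of the remaining 4 libraries. In library 1 the members were higher, at 12.3 against 10.5 CPM, and in the other 5 libraries lower, and *Cck* was not called without libraries 3 and 4. Without these libraries the list had 1 higher and 3 lower genes, and without libraries 1 and 2 it had 4 and 13.

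Of 26 glutamate and GABA receptor subunits tested, 9 were higher and 3 lower (46.2% called, against 6.68% over all genes). All 26 passed the filter in the members alone, unlike many of the genes behind the second share. The counts were 9 and 2 without libraries 3 and 4, 6 and 1 by DESeq2, and 4 and 2 after thinning. The metabotropic glutamate receptor gene *Grm5* had 2406, 2262, 2080 and 2012 CPM in the members of the fed libraries and 1812 and 1839 CPM in those of the fasted ones, and 1062 to 1392 CPM in the other neurons (log2FC 0.74, SE 0.05, edgeR adjusted p = 1.06e-26). The sets did not overlap.

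The AMPA receptor genes *Gria3* (log2FC 0.72, SE 0.07), *Gria1* (0.48, SE 0.06) and *Gria4* (0.35, SE 0.06) were higher, while *Gria2* had a log2FC of 0.02 (SE 0.06). *Gabra5* (0.67, SE 0.09), *Gabra2* (0.34) and *Gabrb1* (0.24), all of GABA-A receptors, and the NMDA receptor gene *Grin1* (0.25) were also higher. The kainate receptor gene *Grik1* was the most reduced of the list. It stood at 85.9, 143, 87.6 and 79.5 CPM and at 62.1 and 58.4 CPM in the members, all below the 167 to 199 CPM of the other neurons (log2FC -1.12, SE 0.10), and *Grin3a* (-0.48) was lower by less.

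Of 30 potassium and calcium channel genes, which set excitability and calcium entry, 14 were higher and 4 lower in the members (60.0% called, against 6.68% over all genes). All 30 passed the filter in the members alone, so here too the share over all genes is an unlike background. The delayed rectifier gene *Kcnb2* had 1553, 1450, 1164 and 1095 CPM in the fed and 1661 and 1652 CPM in the fasted libraries, against 637 to 976 CPM in the other neurons (log2FC 0.81, SE 0.06). *Itpr1*, which encodes a calcium release channel, had 148 to 275 CPM against 80.9 to 127 CPM (log2FC 0.85, SE 0.08), and *Kcnq3*, an M-current subunit gene, had 439 to 955 CPM against 300 to 479 CPM (0.64, SE 0.06). The first 2 of these did not overlap between the sets, and *Kcnq3* overlapped in its range but was higher within every library.

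Its partner subunit gene *Kcnq5* went the other way, at 393, 310, 294 and 269 CPM and at 225 and 257 CPM in the members against 404 to 568 CPM in the other neurons (log2FC -0.76, SE 0.07). *Kcna1* (log2FC 1.00, SE 0.13) was below the other neurons in library 1 (12.3 against 16.3 CPM) and above them in the other 5 libraries. Of the rest, *Cacna2d3* (0.62), *Kcnn3* (0.64), *Cacna1h* (0.64), *Kcna2* (0.62) and *Cacna1e* (0.46) were higher, and *Kcnip4* (-0.35), *Kcnc2* (-0.30) and *Kcnn2* (-0.28) were lower. Without libraries 3 and 4 the counts were 9 higher and 3 lower, and after thinning they were 8 and 2.

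**Figure D3:**
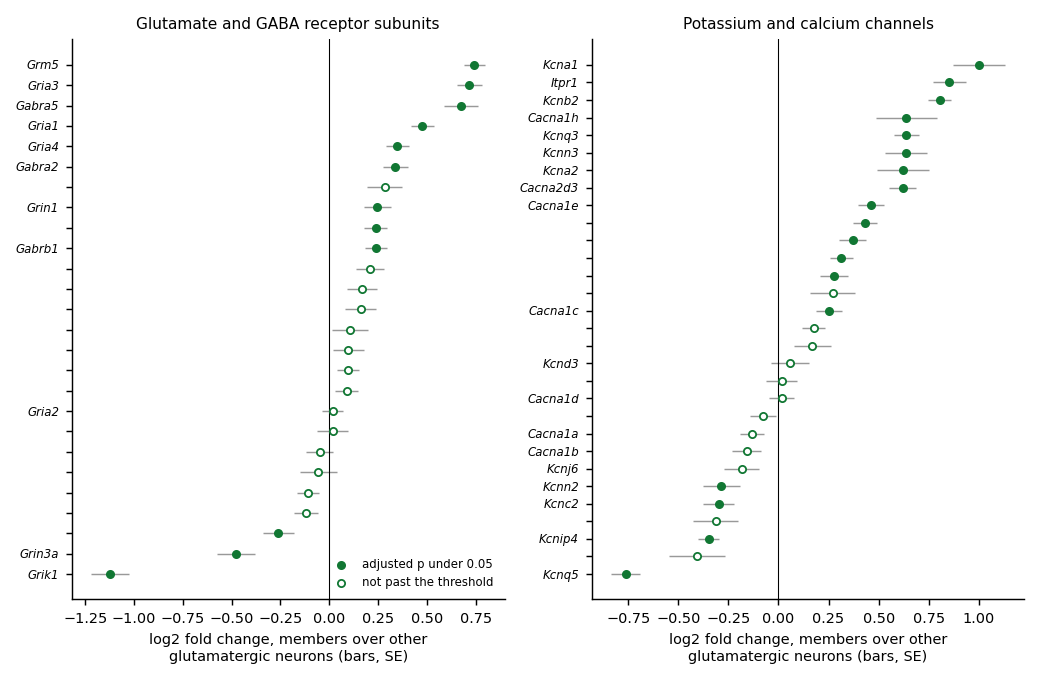
Log2 fold change (points) with its standard error (bars) between members and other glutamatergic neurons for 26 receptor subunit genes (left) and 30 channel genes (right), ordered by value. Filled points passed an adjusted p of 0.05 in edgeR, which 9 higher and 3 lower subunits and 14 higher and 4 lower channels did. Names are given for genes described in the text.

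Of 29 genes of metabolic sensing tested, 2 were higher, 2 lower and 25 did not pass. The called genes were 13.8% of the list, and over all genes 6.68% were called. The cannabinoid receptor gene *Cnr1* had 129, 211, 158 and 167 CPM in members of the fed libraries and 166 and 233 CPM in those of the fasted ones, all above the 59.4 to 88.3 CPM of the others (log2FC 1.24, SE 0.09, edgeR adjusted p = 4.00e-26). The sets did not overlap for this gene.

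The serotonin receptor gene *Htr2c* was lower, at 135, 192, 111 and 96.1 CPM and at 180 and 196 CPM against 272 to 312 CPM (log2FC -1.11, SE 0.09), and *Stat3*, which acts below the leptin receptor, was lower by a log2FC of -0.51 (SE 0.15). The leptin receptor gene *Lepr* (-0.17, SE 0.18), the insulin receptor gene *Insr* (-0.02, SE 0.10), the transcriptional coactivator gene *Ppargc1a* (-0.05, SE 0.13) and the KATP channel gene *Abcc8* (0.19, SE 0.17) did not pass the test. *Kcnj11*, *Glp1r* and *Ghsr* were at 0 UMIs in the members of 3, 4 and 4 of the 6 libraries. Of these 4 calls the 2 higher ones were also made without libraries 3 and 4, with 1 of the 2 lower ones.

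Among genes that respond to activity, glucocorticoids or time of day, 12.5% of the immediate early genes, 14.3% of the glucocorticoid-responsive genes and 22.2% of the clock genes were called, against 6.68% over all genes. Of 24 immediate early genes *Nptx2* was higher and *Nr4a2* (log2FC -3.04) and *Crem* (-0.73) were lower, and of 18 clock genes *Per3* (0.42) and *Rora* (0.28) were higher and *Rorb* (-0.85) and *Hlf* (-0.66) lower. Of 14 glucocorticoid-responsive genes the metallothionein gene *Mt1* (0.64) and the glucocorticoid receptor gene *Nr3c1* (0.45) were higher, both no longer called without libraries 3 and 4. DESeq2 called only *Nr4a2* and *Rorb* among these lists. *Nr4a2*, an orphan nuclear receptor gene, stood at 0, 0, 2.74 and 1.19 CPM in the members of the fed and 5.91 and 0 CPM in those of the fasted libraries, against 9.08 to 19.8 CPM in other glutamatergic neurons, so the sets did not overlap. Of 13 *Foxo* targets and fasting genes edgeR and DESeq2 called none, and the smallest unadjusted p in edgeR was 0.0511, for *Cpt1a*.

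Of 15 sex steroid and ventrolateral genes tested, none was higher and 1 was lower in the members, which is 6.67% against 6.68% over all genes. This was *Rprm*, which encodes a regulator of the cell cycle, at 7.53 to 18.4 CPM in members against 29.3 to 51.5 CPM in other glutamatergic neurons (log2FC -2.20, SE 0.20). The progesterone receptor gene *Pgr* (log2FC -0.38, SE 0.13), *Greb1* (-1.11, SE 0.33) and *Tac1* (-0.37, SE 0.10) did not pass. Without libraries 3 and 4 there were 2 lower genes in this list, and without libraries 1 and 2 there were 3.

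Of 36 genes that name VMH and related neuron subtypes in the study's atlas, 35 were tested. In the members 11 were higher and 7 lower (51.4% called, against 6.68% over all genes), but the study chose these genes in part on the same libraries, so the counts are not independent evidence. They were 8 and 3 without libraries 3 and 4, 11 and 10 without libraries 1 and 2, 9 and 3 by DESeq2 and 6 and 3 after thinning. *Slit3*, which encodes an axon guidance ligand, had 632, 576, 414 and 357 CPM in the fed and 683 and 768 CPM in the fasted libraries, against 165 to 289 CPM (log2FC 1.25, SE 0.07). *Lmo3*, a transcription cofactor gene, had 135 to 178 CPM against 56.0 to 75.7 CPM (1.31, SE 0.09). Neither gene overlapped between the sets. *Rai14* (log2FC 1.46), *Nkd2* (1.14) and *C1ql2* (1.84, at 0 UMIs in the members of libraries 1 and 2) were higher, and *Necab1* (-1.59), *Bcl11b* (-1.18) and *Tcf4* (-0.74) were lower.

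Within the members, levels differed with the rule gene that a nucleus carried, given here as a description over all libraries. *Slit3* stood at 290 CPM in nuclei with *Fezf1* alone, 634 CPM in those with *Nr5a1* alone and 571 CPM in those with both. *Gpr149* stood at 114, 184 and 193 CPM and *Megf11* at 69.6, 183 and 191 CPM in the same order. *Tac1*, which encodes substance P, went the other way, at 173, 40.4 and 159 CPM. The 3 kinds of nuclei come in unlike proportions from libraries that differ in these genes, so within libraries 3 and 4 alone *Slit3* stood at 262, 525 and 523 CPM, *Gpr149* at 107, 192 and 177 CPM, *Megf11* at 63.9, 129 and 176 CPM and *Tac1* at 189, 60.9 and 207 CPM. In these libraries nuclei with *Fezf1* alone were again the lowest in *Slit3*, *Gpr149* and *Megf11*, and nuclei with *Nr5a1* alone the lowest in *Tac1*. In the fasted libraries, with 12 nuclei of the first kind, *Slit3* stood at 515, 787 and 731 CPM, *Gpr149* at 141, 147 and 223 CPM, *Megf11* at 121, 249.7 and 289 CPM and *Tac1* at 40.4, 22.4 and 18.6 CPM. In libraries 1 and 2 the values were 547, 624 and 633 CPM for *Slit3*, 210.3, 245 and 283 CPM for *Gpr149*, 116, 198 and 87.7 CPM for *Megf11* and 21.0, 15.8 and 48.7 CPM for *Tac1*. The order of the 3 kinds of nuclei thus differed between groups of libraries, and in libraries 1 and 2 it rests on few UMIs.

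The second comparison set the members against the 67 *Esr1*-positive VMH nuclei, of which libraries 1 to 4 held 4, 0, 22 and 34 and the fasted libraries 3 and 4. Of 11124 genes tested, 1 was higher in the members (0.00899% of those tested) and 5 were lower (0.0449%), in edgeR with the pool as a block. DESeq2 called 0, with 29 genes at an unadjusted p below 0.05, against 315 by edgeR.

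*Kcnq5* was the only one of the 6 that was lower in the members of every library with both sets. Its level was 1366 CPM in *Esr1*-positive nuclei of library 1, 505 and 485 CPM in those of libraries 3 and 4, and 717 and 266 CPM in those of the fasted libraries. The members of the same libraries had 393, 294, 269, 225 and 257 CPM (log2FC -0.91, SE 0.16, edgeR adjusted p = 0.00693). The gap was thus narrow in fasted library 2 and rests on 3 or 4 *Esr1*-positive nuclei in each of the thin libraries. *Kcnq5* lies on chr1:21398403-21961942, minus strand. The call was kept with the UMIs of a gene limited in each nucleus (adjusted p = 0.0313). It was lost by DESeq2, without a filter on low counts, after thinning, at 5000 or more UMIs per nucleus, with 2 or more *Esr1* UMIs, without nuclei with glial UMIs, with no pool block, and without library 3, fasted library 1 or fasted library 2, and with libraries 3 and 4 left out no gene was called. At 4 or more rule-gene UMIs the log2FC turned to 0.23.

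*Etl4* was lower in the members of 4 of the 5 libraries with both sets, at 90.4, 77.1, 59.1 and 93.4 CPM against 244, 162, 221 and 133 CPM in libraries 3 and 4 and the fasted libraries, while in library 1 it was at 85.9 CPM against 0 UMIs in 4 nuclei (log2FC -1.14, SE 0.20, edgeR adjusted p = 0.0268). *Pkp3*, the higher gene, was at 0 UMIs in the members of 4 libraries and at 105 and 16.6 CPM in libraries 3 and 4, where 1 nucleus gave 84 of 154 UMIs and 1 gave 23 of 28. *Trh*, which encodes thyrotropin-releasing hormone, had 110 and 208 CPM in the members of libraries 3 and 4 against 265 and 510 CPM in *Esr1*-positive nuclei. It had 11.7 against 16.7 CPM in fasted library 2. In library 1 and fasted library 1 *Trh* was higher in the members, at 24.5 and 5.91 CPM against 0 CPM. *Adam2* was at 7.53 and 14.2 CPM in the members of libraries 3 and 4 against 24.7 and 115 CPM, and at 0 UMIs in the *Esr1*-positive nuclei of the fasted libraries. *A230083G16Rik* was at 8.90 and 5.93 CPM against 42.4 and 51.9 CPM in libraries 3 and 4, and higher in the members of the fasted libraries, at 5.91 and 29.2 CPM against 0 and 16.7 CPM.

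Of the VMH markers (8 tested), sex steroid genes (7), receptor subunits (26) and metabolic genes (22), none was called between *Esr1*-negative and *Esr1*-positive nuclei, at median log2FCs of 0.32, -0.08, 0.08 and -0.04 against 0.03 over all genes. These counts of 0 are those of edgeR, and DESeq2 called none either. *Gpr149* was found in 36 of 67 *Esr1*-positive nuclei (53.7%) and in 65.9% of members.

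The third comparison asked how the members' genes differed between fasted and fed mice. No gene passed the test in edgeR (0% of 11127 tested), with 35 genes higher and 329 lower in the fasted pool at an unadjusted p below 0.05, and DESeq2 called none either, with 186 at an unadjusted p below 0.05. The genes below are therefore described by their values in the 6 libraries. In 1468 genes (13.2%) each fasted library was higher than every fed one, in 1070 (9.62%) each was lower, and these shares are the background for the counts that follow. The rule genes were not left out of these totals, and *Fezf1* is among the lower genes. Without libraries 3 and 4 the counts were 1774 and 982, and without libraries 1 and 2 they were 3544 and 3333. The assignment of libraries to pools set the test, since with libraries 1 and 2 as 1 pool edgeR called 0 genes and with 1 and 3, or 1 and 4, as 1 pool it called 2149 and 2619.

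*Zbtb16*, which encodes a zinc finger factor induced by glucocorticoids, had the smallest p. It stood at 24.5, 6.20, 8.90 and 12.5 CPM in the fed libraries and at 76.9 and 75.9 CPM in the fasted ones. The groups did not overlap, and the log2FC was 2.65 (SE 0.39, edgeR unadjusted p = 0.00207, adjusted p = 1.00). UMIs of the gene were found in 3 of 24, 1 of 26, 10 of 124 and 19 of 149 members of the fed libraries and in 20 of 34 and 16 of 33 members of the fasted ones. The difference was shared with other glutamatergic neurons, in which the gene stood at 16.3, 14.1, 16.6 and 16.0 CPM and at 72.7 and 64.4 CPM. *Zbtb16* lies on chr9:48654297-48836222, minus strand.

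**Figure D4:**
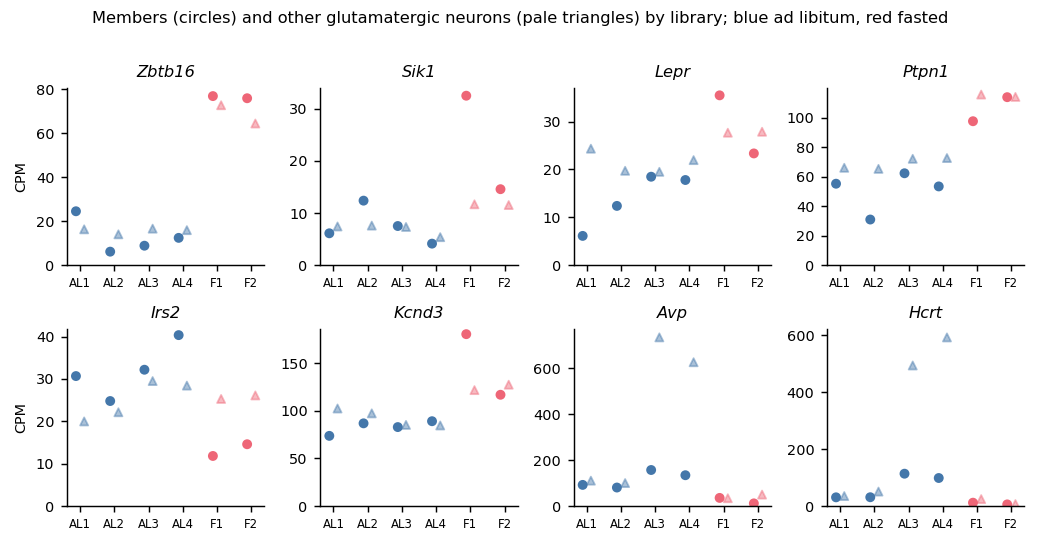
CPM of 8 genes in each library, in members (circles) and other glutamatergic neurons (pale triangles), with a linear axis from 0. Blue, ad libitum fed; red, fasted. In members *Zbtb16* is at 76.9 and 75.9 CPM in the fasted and at most 24.5 CPM in the fed libraries, *Irs2* is lower in the fasted libraries, and the peptides *Avp* and *Hcrt* are highest in AL3 and AL4.

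Of 13 glucocorticoid-responsive genes, *Zbtb16*, *Per1* and *Errfi1* were higher in each fasted library than in every fed one and none was lower. *Per1* had 0, 6.20, 9.59 and 7.12 CPM in the fed and 23.6 and 14.6 CPM in the fasted libraries (log2FC 1.25, not past the threshold). *Fkbp5*, another glucocorticoid-induced gene, had 30.7, 37.2, 26.0 and 41.5 CPM and 56.2 and 37.9 CPM, so its groups overlapped. Among 18 clock genes *Per1*, *Cry1*, *Cry2* and *Npas2* were higher and *Dbp* and *Nr1d2* lower, with *Dbp* at 36.8, 24.8, 23.3 and 27.3 CPM against 5.91 and 11.7 CPM. The time of day at which each group was taken was not used here.

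Of 22 genes of metabolic sensing, 5 were higher in both fasted libraries and 1 was lower. *Lepr* had 6.14, 12.4, 18.5 and 17.8 CPM in the fed and 35.5 and 23.3 CPM in the fasted libraries (log2FC 0.74), on 80 UMIs in all. *Ptpn1*, which encodes a phosphatase that acts on leptin and insulin receptor signaling, had 55.2, 31.0, 62.3 and 53.4 CPM and 97.6 and 114 CPM (log2FC 0.88). *Esrra*, *Prkaa2* and *Ntrk2* were the others that were higher. *Irs2*, an adaptor of the insulin receptor, had 30.7, 24.8, 32.2 and 40.4 CPM and 11.8 and 14.6 CPM (log2FC -1.46), so it was lower in both fasted libraries. *Irs2* was also the only one of 9 *Foxo* target and fasting genes without overlap. None of these differences passed the test.

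Of 30 channel genes, 11 were higher in both fasted libraries and 2 lower (*Kcna2* and *Kcnq5*). They included *Cacna1a*, *Cacna1b*, *Cacna1c*, *Cacna1d*, *Cacna1e*, *Itpr1*, *Kcnb2*, *Kcnd3*, *Kcnj6* and *Kcnn3*, and the median log2FC was 0.30 over the 30 genes against -0.02 over all genes. *Kcnd3* had 73.6, 86.8, 82.9 and 89.0 CPM in the fed and 180 and 117 CPM in the fasted libraries (log2FC 0.74). Of 26 receptor subunits 4 were higher and 5 lower. The share of ribosomal protein genes in the members' UMIs was smaller in each fasted library than in any fed library. Without ribosomal protein and mitochondrial genes, 1468 genes over all were higher and 1018 lower without overlap, and edgeR called 0. The median depth of the members in the fasted libraries lay within the range of the fed ones.

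*Sik1*, which encodes a salt-inducible kinase, and *1700016P03Rik*, the host of activity-regulated microRNAs, were the 2 of 9 immediate early genes that were higher in both fasted libraries, at 32.5 and 14.6 CPM against 4.15 to 12.4 CPM and at 127 and 55.5 CPM against 24.5 to 38.0 CPM. *Fos* was below the filter in the members, at 0, 0, 5.48 and 11.9 CPM and at 2.96 and 5.84 CPM. Of the VMH markers tested, none was higher and *Cbln1* was lower in both fasted libraries, at 8.87 and 8.76 CPM. *Gpr149* (log2FC 0.04), *Sox14* (0.05) and *Nkx2-2* (0.08) had overlapping groups. Of 22 subtype genes *Slit3*, *Rai14*, *Lmo3* and *Tcf7l2* were higher, and among 7 sex steroid genes *Esrrg* and *Ncoa1* were higher.

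Peptides of other neurons were among the genes that were lower in the fasted libraries. Of the 14 neighboring-neuron genes 11 were tested, and *Avp*, *Hcrt*, *Npy*, *Pmch* and *Pomc* were lower and *Agrp* was higher in both fasted libraries. *Avp* had 92.1, 80.6, 157 and 134 CPM in the fed and 35.5 and 11.7 CPM in the fasted libraries (log2FC -2.55), and *Agrp* had 18.4, 12.4, 28.1 and 29.1 CPM and 50.3 and 43.8 CPM. These genes are products of other neurons, and in other glutamatergic neurons *Avp* had 111, 100, 734 and 625 CPM and 34.1 and 49.8 CPM. The summed level of neighboring-neuron genes given above, which includes these genes, was also lowest in the fasted libraries, while *Agrp* went the opposite way, and the part of RNA from other cells was not tested. Of 19 transmitters and peptides, *Cbln1*, *Gal* and *Sst* were lower and none higher.

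Oligodendrocyte RNA over all nuclei stood at a higher level in the fasted libraries, with no test run. In all nuclei the 6 oligodendrocyte genes summed to 257, 257, 162 and 181 CPM in the fed and 743 and 845 CPM in the fasted libraries, and in other glutamatergic neurons to 143, 114, 135 and 129 CPM and 251 and 283 CPM. In the members *Mbp* had 36.8, 6.20, 49.3 and 40.9 CPM in the fed and 59.1 and 49.6 CPM in the fasted libraries, a narrow gap and the only one of 4 tested genes without overlap, while the 6-gene sum of fasted library 1 lay within the fed range. Members with at least 2 glial or vascular UMIs made up 50.2% in the fed and 64.2% in the fasted group. Without these nuclei 995 genes were higher and 864 lower without overlap, and edgeR called 0.

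Of 82 ribosomal protein genes, 45 were lower in both fasted libraries and none higher, with a median log2FC of -3.02, and 7 of 10 mitochondrially encoded genes were lower. The same genes differed among the fed libraries, since their median log2 ratio between libraries 3 and 4 and libraries 1 and 2 was 2.31 for ribosomal and 2.22 for mitochondrial genes, against 0.06 over all genes. *Bsg*, which encodes basigin, had 141, 130, 607 and 617 CPM in the fed and 44.3 and 32.1 CPM in the fasted libraries. *Uqcrb*, a gene of respiratory complex III, had 24.5, 31.0, 171 and 179 CPM and 2.96 and 2.92 CPM. For both genes libraries 3 and 4 stood far above libraries 1 and 2, and the fasted libraries below all 4.

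*Mif* (log2FC -3.96), *Cst3* (-3.25), *Gcsh* (-4.65), *Ctxn1* (-2.04), *Ino80b* (-2.30) and *Pmch* (-2.95) completed the lower genes with the smallest p, together with *Hebp1*. *Hebp1*, a heme-binding protein gene, had 6.14, 37.2, 28.1 and 23.7 CPM in the fed libraries and 0 UMIs in both fasted ones. Unlike *Uqcrb*, *Ctxn1* and *Ino80b* stood at like levels in all 4 fed libraries, with *Ctxn1* at 123, 86.8, 117 and 134 CPM against 35.5 and 26.3 CPM.

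Among the higher genes with the smallest p, the forkhead factor gene *Foxk1* had 24.5, 18.6, 25.3 and 22.0 CPM in the fed and 68.0 and 67.1 CPM in the fasted libraries (log2FC 1.47), and *Gramd4* had 12.3, 18.6, 15.7 and 11.3 CPM and 47.3 and 52.5 CPM (1.79). Both were also higher in other glutamatergic neurons of the fasted libraries, at 41.8 and 43.1 CPM against 19.1 to 24.8 CPM for *Foxk1*. *Nfib* (1.79), *Ski* (1.53), *Rad18* (1.58), *B4galt1* (2.16), *Ltbp1* (2.05) and *Mir9-3hg* (1.82) were further ones, none of them past the threshold.

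*Pla2g6*, which encodes a calcium-independent phospholipase, rested on few nuclei. It stood at 36.8, 68.2, 41.1 and 74.8 CPM in the fed and 210 and 146 CPM in the fasted libraries (log2FC 1.55). In fasted library 1, however, 66 of its 71 UMIs lay in 1 nucleus, and in fasted library 2, 38 of 50 did. The other members held 5 and 12 UMIs, in 5 and 7 nuclei with a UMI. For *Zbtb16* the highest nucleus of the fasted libraries held 2 and 3 UMIs of 26 each.

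**Figure D5:**
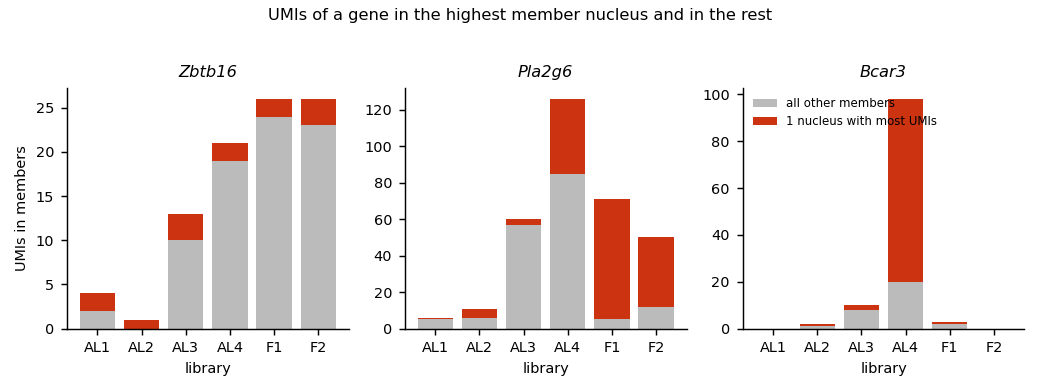
UMIs of 3 genes in the members of each library (stacked bars), in the 1 nucleus with most UMIs (red) and in all other members (gray). *Zbtb16* is spread over many nuclei, while in the fasted libraries 66 of 71 and 38 of 50 *Pla2g6* UMIs, and in AL4 78 of 98 *Bcar3* UMIs, lie in 1 nucleus.

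The last comparison tested whether the fasting change differed between the members and other neurons, with a fasted arm of 1 pool. Against other glutamatergic neurons, 4 of 19457 genes were called (0.0206%), namely *Pla2g6* (difference of log2FCs 2.59, SE 0.23, edgeR adjusted p = 9.21e-06), *Muc13* (5.31), *Gpc5* (-0.999, SE 0.15) and *Adarb2* (-0.985, SE 0.15). *Pla2g6* rests on the 2 nuclei described above and turned to -1.39 without nuclei with glial UMIs, and *Muc13* on fasted library 1, where 1 nucleus held 19 of its 21 UMIs. *Adarb2*, which encodes a relative of the RNA-editing enzymes that is itself not known to edit, had 405, 490, 439 and 325 CPM in the members of the fed and 133 and 359 CPM in those of the fasted libraries, against 552, 513, 348 and 341 CPM and 468 and 529 CPM. Fasted library 2 lay within the range of the fed ones. With the UMIs of a gene limited in each nucleus *Adarb2* alone was called (adjusted p = 0.0328), while by DESeq2 and after thinning *Pla2g6* alone was. *Adarb2* was also lost without fed library 2, 3 or 4, without fasted library 1, at 4 or more rule-gene UMIs and without nuclei with glial UMIs.

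*Gpc5*, which encodes a glypican, had 203, 508, 395 and 331 CPM in the members of the fed and 130 and 239 CPM in those of the fasted libraries, so that the second fasted library lay within the range of the first group. Against *Esr1*-positive VMH nuclei, 2 of 11124 genes were called (0.018%), *Kcnmb2* (-4.15, SE 0.79) and *Bcar3* (-6.17, SE 1.19), on 3 and 4 *Esr1*-positive nuclei of the fasted libraries. *Bcar3* had 193 and 16.7 CPM in these nuclei and at most 9.03 CPM in the *Esr1*-positive nuclei of the fed libraries, against 8.87 and 0 CPM in the fasted and up to 58.2 CPM in the fed members. With limited UMIs per nucleus, and by DESeq2, 0 genes were called, while edgeR had 187 at an unadjusted p below 0.05. *Zbtb16* was called in neither test, so its difference between members and other neurons was not shown.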

How the data were processed

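Single-nucleus RNA was measured in 6 libraries. The authors aligned reads with Cell Ranger 5.0.1 to mm10, per the submitters' processing notes, and deposited filtered matrices of UMI counts per gene and barcode, with the barcode and gene name lists. Whether introns were counted is not given in the sources used here.

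Here 39953 barcodes were read and 39665 with at least 1000 UMIs kept. No doublet caller was run, and 6 members had at least 20000 UMIs. No barcode of a member occurred as a member in another library. UMIs were summed per set of nuclei and library, and genes with 10 or more counts in 2 or more of the summed libraries were tested with edgeR 4.0.16 (quasi-likelihood, TMM, R 4.3.3). Where 2 sets of nuclei were compared, it was enough that 1 of them met this filter. In these tests each pool of mice counted as 1 sample. As the labels do not assign fed libraries to pools, each of the 3 possible assignments was fitted, a gene was given the highest of its 3 p-values, and these were adjusted over all genes by Benjamini and Hochberg's procedure (threshold 0.05). The log2FC and SE are means over the 3 fits. Comparisons within libraries had the pool as a block. The 7 rule genes were left out of the tests between sets of nuclei, but not of the test between feeding states within the members. CPM divides a gene's UMIs by the sum over the set and library. Shares of nuclei follow from the rule and are described with no test. DESeq2 1.42.0, thinning, other filters, left-out libraries, left-out nuclei with glial UMIs and left-out ribosomal protein and mitochondrial genes were alternatives (Python 3.11.15, numpy 2.4.6, scipy 1.17.1, pandas 2.3.3, limma 3.58.1). The tests were tried on simulated counts.

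The text names genes at 20 CPM or more in the higher group: between feeding states the 10 in each direction with the smallest p among those without overlap, between sets the 12 with the largest change in each direction among genes past the threshold with 1 direction in all libraries, for differences in the fasting change the 5 of smallest p in each direction at most, and any gene of the fixed lists. The called genes *Pkp3*, *Trh*, *Adam2*, *Etl4*, *A230083G16Rik* and *Muc13* were named after their values were seen where the rule did not name them. Members and lists were chosen with earlier results of these data known. Coordinates are those of GENCODE vM21 on GRCm38. The authors' cell annotation was not used here. Some genes counted in the lists are not reported here by name.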

Additional observations from a re-analysis of the deposited data

Results flagged for a closer look

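In the members, the fed libraries of 62 genes were each examined for 1 library far from the other 3, of which chance gives about 1 in 20. The gap to the nearest library was 0.876 of the group's range for *Adamts9*, where library 3 was highest at 56.1 CPM against 48.7 to 49.6 CPM. It was 0.875 for *Ankrd33b*, with library 1 at 43.0 CPM against 11.9 to 15.7 CPM. For *Ebf3* it was 1, as library 3 had 4.11 CPM and the other 3 fed libraries had 0 UMIs. The 6 *Ebf3* UMIs of library 3 all lay in 1 of its 124 members.

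In the test of the fasting change between the members and another set of nuclei, edgeR's quasi-likelihood test called 6 genes, with 1 pool of mice in the fasted arm and, on the *Esr1*-positive side, 3 and 4 fasted nuclei. The calls of *Pla2g6* and *Muc13* rest on single nuclei. Against *Esr1*-positive VMH nuclei the difference of log2FCs was -4.15 for *Kcnmb2* (adjusted p = 0.0277), with 8.87 and 14.6 CPM in the members and 138 and 167 CPM in the *Esr1*-positive nuclei of the fasted libraries, and -6.17 for *Bcar3* (adjusted p = 0.0465), of whose 98 UMIs in the members of fed library 4 a single nucleus held 78, and which had 193 and 16.7 CPM in the *Esr1*-positive nuclei of the fasted libraries. Against other glutamatergic neurons it was 2.59 for *Pla2g6* (adjusted p = 9.21e-06, but -1.39 without nuclei with glial UMIs), of which 1 nucleus held 66 of 71 UMIs in the members of fasted library 1 and 1 held 38 of 50 in those of fasted library 2, 5.31 for *Muc13* (adjusted p = 0.0128), of whose 21 UMIs in the members of fasted library 1 a single nucleus held 19, -0.999 for *Gpc5* (adjusted p = 0.00155) and -0.985 for *Adarb2* (adjusted p = 0.00308).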

How the results depend on the processing

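Between feeding states, edgeR called 0 genes in the members with 1 library left out in turn (0 to 0), but 192 without a filter on low counts, and 2149 and 2619 with fed libraries 1 and 3, or 1 and 4, as a pool. The numbers of the libraries do not pair them by the labels. The deviations of same-numbered libraries from their group correlated at -0.0132 and 0.00566. With 2 fasted libraries these deviations mirror each other, so the values cannot decide whether the numbers pair libraries. With the replicate number as a replicate block 154 genes were called, 39 higher and 115 lower. The 1468 genes with each fasted library above every fed one became 495 after thinning, 753 at 4 or more rule-gene UMIs, 3544 without libraries 1 and 2 and 1774 without libraries 3 and 4 (1387 to 2797 with 1 library left out), and the 1070 below became 445 after thinning, 3333 without libraries 1 and 2 and 982 without libraries 3 and 4 (485 to 2247 with 1 left out). The alternatives without a pair of libraries and with limited UMIs per nucleus were chosen after seeing the data.

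Between *Esr1*-negative and *Esr1*-positive nuclei, 6 calls became 0 by DESeq2, after thinning, at 4 or more rule-gene UMIs, without nuclei with glial UMIs, with no replicate block and without libraries 3 and 4, became 1 with limited UMIs, 3 at 5000 or more UMIs, 17 with libraries as separate samples, 11, 23 and 35 with single pool assignments and 25 without libraries 1 and 2 (0 to 24 with 1 library left out). *Kcnq5* turned to a log2FC of 0.23 at 4 or more rule-gene UMIs.

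Between members and other glutamatergic neurons, 1300 calls became 446 by DESeq2, 344 after thinning, 18 at 4 or more rule-gene UMIs, 738 without nuclei with glial UMIs, 648 without libraries 3 and 4, 2116 with libraries as separate samples, and 2553 and 2488 with libraries 1 and 3, or 1 and 4, as a pool (736 to 1171 with 1 library left out).

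For the difference in the fasting change against *Esr1*-positive nuclei, 2 calls became 0 by DESeq2, without a filter, after thinning, without nuclei with glial UMIs and with limited UMIs, 4 with separate libraries, and 5 and 6 with pools of libraries 1 and 3, or 1 and 4 (0 to 0 with 1 library left out). Leaving out fed library 1, 3 or 4, and 4 or more rule-gene UMIs, could not be fitted there. Against other glutamatergic neurons, 4 calls became 1 by DESeq2, after thinning and with limited UMIs, 2 without nuclei with glial UMIs, 0 at 4 or more rule-gene UMIs, 8 without a filter, 22 with separate libraries, and 14, 13 and 46 with single pool assignments (1 to 9 with 1 library left out), and *Pla2g6* turned to -1.39 without nuclei with glial UMIs. The *Esr1*-negative share of VMH nuclei differed by -42.1 points at 4 or more rule-gene UMIs, where few nuclei remained. The causes of these changes were not tested.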

Other observations

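The 1312 glutamatergic nuclei with exactly 1 UMI of *Fezf1* and *Nr5a1*, which enter none of the tests above, give a further set of values for the genes named between feeding states. In them *Zbtb16* stood at 13.7, 19.9, 16.6 and 11.4 CPM in the fed and 56.7 and 63.7 CPM in the fasted libraries, so that the groups did not overlap there either. *Foxk1* had no overlap in these nuclei, while *Mir9-3hg*, *Rad18*, *Gramd4*, *Ski*, *Ltbp1*, *B4galt1* and *Nfib* overlapped. Among the lower genes *Hebp1* and *Pmch* overlapped. For a log2 ratio of fasted over fed, the UMIs of each group's libraries were pooled, expressed as CPM and raised by 1 CPM. Libraries with more UMIs thus weigh more in it. The ratio was 1.99 for *Zbtb16*, 1.10 for *Mir9-3hg*, 1.01 for *Rad18*, 0.99 for *Foxk1*, 0.88 for *Gramd4*, 0.78 for *Ski*, 0.74 for *Ltbp1*, and 0.41 for both *B4galt1* and *Nfib*, which had 2.06 and 1.88 in the members. Of the lower genes it was -3.57 for *Bsg*, -3.31 for *Mif*, -3.26 for *Uqcrb*, -2.89 for *Cst3*, -1.94 for *Pmch*, -1.74 for *Gcsh*, -1.29 for *Ctxn1*, -1.16 for *Ino80b* and -0.92 for *Hebp1*, each nearer to 0 than in the members, while for *Avp* it was -4.43 against -2.52 in the members. *Pla2g6* had a ratio of -1.27 in these nuclei, opposite to its sign in the members. These nuclei come from the same 6 libraries, and no test was run on them.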
